A study of Homo sapiens with 16 samples.

Results

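The genes described here are 10 regulators of the G1 phase of the cell cycle, chosen by name from the 57773 rows of the count table for their known roles. They are the D-type cyclins CCND1, CCND2 and CCND3, the E-type cyclin CCNE1, the kinases CDK4 and CDK6, the inhibitors CDKN1A, CDKN1B and CDKN2C, and RB1. RNA was sequenced from 4 cell lines derived from clear cell renal cell carcinoma (ccRCC), and every line was described with and without a guide RNA against KDM5C. KDM5C is an X-linked demethylase of lysine 4 of histone H3 and KDM5D is its Y-linked paralogue.

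Cells were infected with a lentivirus that carries Cas9 and a guide, and were kept as selected populations rather than single-cell clones. The lines 786-O and CAKI-2 gave 5 libraries each, namely 1 with a control guide (sgCtrl), 2 with different guides against KDM5C (sgKDM5C 4 and sgKDM5C 5) and 2 with different guides against KDM5D (sgKDM5D 2 and sgKDM5D 4). The lines A498 and 769-P gave 3 libraries each, 1 with sgCtrl and 1 with either of the same guides against KDM5C. Every library, controls included, thus came from infected and selected cells expressing Cas9. No label states separate cultures for a guide, so p-values measure only the spread between these libraries, which may in part be technical.

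Progress through G1 depends on the retinoblastoma protein, encoded by RB1, which holds E2F transcription factors in check until it is phosphorylated. Cyclins of the D type bind the kinases CDK4 and CDK6 and begin that phosphorylation, and cyclin E with CDK2 completes it. Inhibitors of the INK4 family, to which CDKN2C (p18) belongs, bind CDK4 and CDK6 themselves, whereas the CIP/KIP inhibitors CDKN1A (p21) and CDKN1B (p27) bind whole cyclin and kinase complexes. CDKN1A is a classical target of p53, and CCND1 is known in ccRCC as a gene raised by hypoxia-inducible factor when VHL is lost.

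The libraries held 23398400 to 41617400 counts. KDM5C transcript stood at 26.2 to 57.3% of the line's own control in the sgKDM5C libraries and at 91.5 to 106% in the sgKDM5D libraries. KDM5D transcript stood at 76.2 to 103% of control in the sgKDM5D libraries, so its level does not check that label. The kidney and epithelial markers PAX8, PAX2, KRT8, KRT18 and VIM were detected in all 16 libraries, whereas CA9, a usual ccRCC marker, had 0 counts in 11. NDUFA4L2 had 0 counts in the 3 libraries of 769-P and only 9 to 27 counts a library in 786-O. The 12 matched markers of other kidney or stromal cells summed to 1.52 to 48.0 CPM (counts scaled to a common library total), highest in A498 where COL1A1 reached 41.8 CPM, and the T cell marker CD3E had 0 counts throughout. The libraries 786-O sgKDM5C 4 and 769-P sgKDM5C 4 stood apart from the others of their line. Their counts differed from those of the same line with a mean chi-square per gene of 37.6 to 69.1 and of 45.3 to 46.2, against 6.62 to 34.1 in the other 20 pairs.

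The lines, and not the guides, separated these genes. Levels below are in CPM of the normalised library, and a line is compared with another by the mean of its sgCtrl and sgKDM5C groups on the log2 scale. Where an alternative left out the sgCtrl library of a line, both lines of the pair were compared by their sgKDM5C groups only. Of the 10 genes, 9 passed the filter of 60 counts over all libraries, and CCND2 did not. All 9 differed between the lines at an adjusted p under 0.05 (edgeR quasi-likelihood test with Benjamini-Hochberg adjustment over 20175 genes), and 90.5% of all genes tested did so too. The difference between the highest and the lowest line had a median of 3.95-fold over the 9 genes, 3.84-fold over all genes tested and 2.79-fold over genes that averaged 100 counts or more per library. The count of G1 genes that differ is thus near the background, and the results lie in which line was high for which gene. In bulk RNA, fewer cells in a phase of the cycle cannot be told apart from less RNA per cell.

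**Figure D1:**
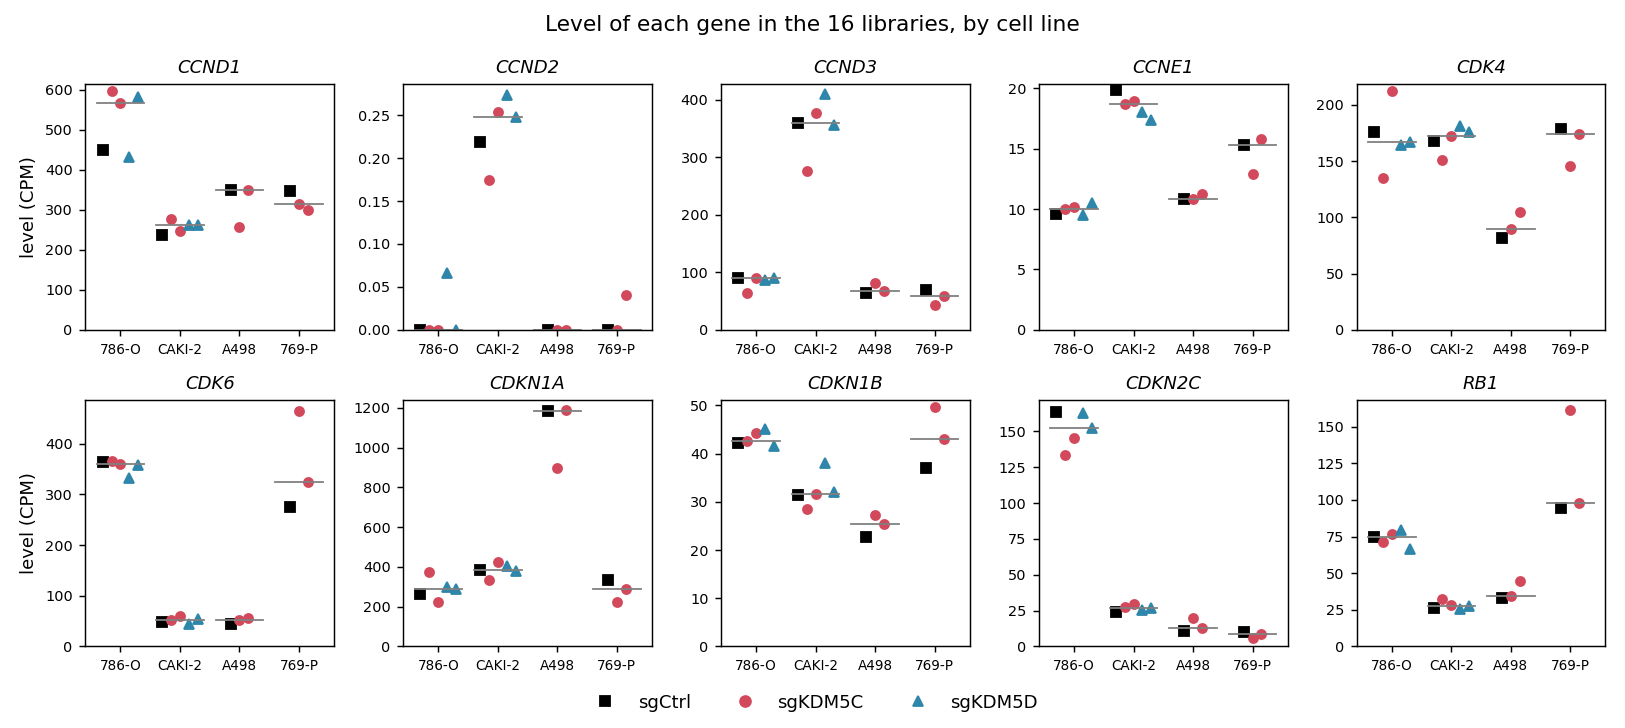
Level of each of the 10 genes in CPM (vertical axis, from 0) in the 16 libraries grouped by cell line (horizontal axis). Squares are sgCtrl, circles sgKDM5C and triangles sgKDM5D libraries, and the grey line is the median of the line. CDKN2C stood at 134 to 164 CPM in 786-O and at no more than 29.6 CPM elsewhere, CCND3 was highest in all 5 CAKI-2 libraries and CDKN1A in all 3 A498 libraries.

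CCND1 encodes cyclin D1 (chr11:69455924-69469242, plus strand, GRCh37). In 786-O it measured 449.5 CPM in sgCtrl, 597 and 567 CPM in sgKDM5C 4 and 5, and 432 and 582 CPM in sgKDM5D 2 and 4. In CAKI-2 the order of the same libraries gave 237, 277, 247, 261 and 261 CPM. All 5 libraries of 786-O were above every library of the other lines, and in 786-O the libraries themselves spread over a wider range than in CAKI-2.

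In A498 the sgCtrl, sgKDM5C 4 and sgKDM5C 5 libraries held 348, 257 and 349 CPM of CCND1, and in 769-P they held 347, 314 and 299 CPM. CCND1 was 2.05-fold higher in 786-O than in CAKI-2 (log2 1.04 ± 0.15 SE, adjusted p = 2.57e-05), and 1.57-fold higher than in A498 (adjusted p = 0.00108) and than in 769-P (adjusted p = 0.00188). A498 and 769-P could not be told apart (log2 difference -0.01, 95% interval -0.32 to 0.30). CAKI-2 lay below both by 1.30- and 1.31-fold (adjusted p = 0.0313 and 0.0299), and each of these calls was kept in 5 of 12 alternative settings only. Without the CAKI-2 sgCtrl library the log2 differences were -0.14 and -0.18 (adjusted p = 0.496 and 0.375), and both calls were also lost without either CAKI-2 sgKDM5C library. The call against A498 was lost without A498 sgCtrl (adjusted p = 0.299) or sgKDM5C 5 (adjusted p = 0.121), and that against 769-P without 769-P sgCtrl (adjusted p = 0.262) or sgKDM5C 4 (adjusted p = 0.0565). LTO1, on the opposite strand, shares 497 bases of exon with CCND1 and had 10151 counts over all libraries against 164296.

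CCND2, the cyclin D2 gene (chr12:4378937-4414519, plus strand), was near the limit of detection in this panel with 41 counts over the 16 libraries. CAKI-2 held 8 of them in sgCtrl, 5 and 11 in sgKDM5C 4 and 5, and 7 in either sgKDM5D library. Beyond CAKI-2 there were 2 counts in 786-O sgKDM5D 2 and 1 count in 769-P sgKDM5C 5, and 0 in the 9 remaining libraries. A count of 0 allows 3 counts, or 0.0986 to 0.128 CPM in the libraries of 786-O, A498 and 769-P, so a level under that was not detectable at this depth. Each of the 5 CAKI-2 libraries lay above this limit for its own depth. Intervals and limits of this kind cover counting error only.

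CCND3, the cyclin D3 gene (chr6:41902672-42018095, minus strand), was the D cyclin that set CAKI-2 apart. There it measured 359 CPM in sgCtrl, 276 and 377 CPM in sgKDM5C 4 and 5, and 409 and 356 CPM in sgKDM5D 2 and 4. The libraries of 786-O held 90.2, 63.7, 90.8, 85.8 and 89.8 CPM in that order. The lowest CAKI-2 library was far above every library of the other lines.

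In A498 the 3 libraries held 63.5, 81.8 and 66.8 CPM of CCND3, and in 769-P 69.3, 43.8 and 59.1 CPM. CAKI-2 exceeded 786-O in CCND3 by 4.10-fold (adjusted p = 3.06e-07), A498 by 4.99-fold (adjusted p = 9.87e-08) and 769-P by 5.73-fold (adjusted p = 4.56e-08). Among the other 3 lines the differences were small, and the call between 786-O and 769-P (1.40-fold, adjusted p = 0.0351) was lost without 786-O sgKDM5C 5 (adjusted p = 0.0926) and without 769-P sgKDM5C 4 (adjusted p = 0.0990). Between 786-O and A498 (log2 0.28, adjusted p = 0.172) the difference was 0.45 without 786-O sgKDM5C 4. That between A498 and 769-P (log2 0.20, adjusted p = 0.326) was called without either line's sgCtrl library (0.53, adjusted p = 0.0347 and 0.0349). Both of these fits compared the sgKDM5C groups only, so they are not separate checks.

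CCNE1 (chr19:30302898-30315219, plus strand), whose product activates CDK2 at the end of G1, was highest in CAKI-2 at 17.4 to 19.9 CPM, followed by 769-P at 12.9 to 15.8 CPM, A498 at 10.8 to 11.2 CPM and 786-O at 9.50 to 10.5 CPM. Libraries of CAKI-2 did not overlap those of any other line. CAKI-2 exceeded 786-O by 1.96-fold (adjusted p = 5.88e-05) and A498 by 1.77-fold (adjusted p = 0.000250), while A498 and 786-O, neighbours in this order, did not differ beyond their spread (log2 difference of 786-O against A498 -0.15, 95% interval -0.48 to 0.17). The smaller step between CAKI-2 and 769-P (1.31-fold, adjusted p = 0.0347) was called in 6 of 12 alternative settings, and was lost without either sgKDM5C library of CAKI-2 or without sgCtrl or sgKDM5C 4 of 769-P (adjusted p from 0.0537 to 0.0660). 769-P exceeded 786-O (log2 difference of 786-O against 769-P -0.59, adjusted p = 0.00476), a call lost when only these lines were fitted (log2 -0.55, adjusted p = 0.0501). It exceeded A498 by 1.35-fold (adjusted p = 0.0189), a call lost without either line's sgCtrl library (adjusted p = 0.0697 and 0.0704). Both of these fits compared the sgKDM5C groups only, so they are not separate checks.

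Between the kinases the lines behaved differently. CDK4 (chr12:58141510-58149796, minus strand) was near level in 3 lines, with 135 to 212 CPM in 786-O, 151 to 181 CPM in CAKI-2 and 146 to 178 CPM in 769-P. Only in A498 was it lower, at 81.7, 89.5 and 104.5 CPM in sgCtrl, sgKDM5C 4 and sgKDM5C 5, below each of the other 13 libraries. The difference was 1.96-fold against 786-O (adjusted p = 9.25e-05), 1.85-fold against CAKI-2 (adjusted p = 0.000238) and 1.90-fold against 769-P (adjusted p = 0.000139). TSPAN31 shares 1369 bases of exon with CDK4 on the opposite strand and had 14803 counts against 71349. Whether strand was used in the counting is not given in the sources used here, so reads of the pair cannot be told apart.

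CDK6 (chr7:92234235-92465887, minus strand), the partner kinase of CDK4 for D cyclins, split the panel into a high and a low pair of lines. In 786-O it measured 364 CPM in sgCtrl, 366 and 360 CPM in sgKDM5C 4 and 5, and 332 and 358 CPM in sgKDM5D 2 and 4. In 769-P it measured 275, 465 and 324 CPM in sgCtrl, sgKDM5C 4 and sgKDM5C 5. These 8 libraries all exceeded the highest of the other 8.

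In CAKI-2 the 5 libraries held 49.1, 51.7, 59.2, 45.2 and 55.0 CPM of CDK6, and in A498 the 3 held 43.5, 52.2 and 56.7 CPM. CDK6 was 6.97-fold higher in 786-O than in CAKI-2 (log2 2.80 ± 0.16 SE, adjusted p = 3.04e-09) and 7.46-fold higher than in A498 (adjusted p = 1.65e-09). It was 6.31-fold higher in 769-P than in CAKI-2 (adjusted p = 4.35e-09) and 6.76-fold higher than in A498 (adjusted p = 2.27e-09). Within the high pair and within the low pair the difference was not called (adjusted p = 0.452 and 0.571), with 95% intervals of -0.17 to 0.45 and -0.22 to 0.41 on the log2 scale.

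CDKN1A (chr6:36644237-36655114, plus strand) was the gene that set A498 apart, with 1183, 896 and 1190 CPM in sgCtrl, sgKDM5C 4 and sgKDM5C 5. In CAKI-2 it measured 386, 333, 424, 404 and 379 CPM across the 5 libraries. In 786-O it measured 264 CPM in sgCtrl, 375 and 225 CPM in sgKDM5C 4 and 5, and 300 and 289 CPM in sgKDM5D 2 and 4. No library of another line reached the A498 levels.

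The 769-P libraries held 335, 225 and 289 CPM of CDKN1A. A498 exceeded 786-O by 3.95-fold (adjusted p = 6.65e-07), 769-P by 3.79-fold (adjusted p = 8.12e-07) and CAKI-2 by 2.91-fold (adjusted p = 8.63e-06). Between 786-O and CAKI-2 the difference was not called (log2 -0.44, 95% interval -0.85 to -0.03, adjusted p = 0.0551), but it was in 6 of 12 alternative settings, and without 786-O sgKDM5C 4 it was -0.65 (adjusted p = 0.00225) and without CAKI-2 sgKDM5C 4 -0.55 (adjusted p = 0.0339). CAKI-2 against 769-P (log2 0.38, adjusted p = 0.0931) was likewise called without CAKI-2 sgCtrl, CAKI-2 sgKDM5C 4 or 769-P sgCtrl (0.50 to 0.60, adjusted p from 0.0300 to 0.04997).

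CDKN1B (chr12:12838432-12875303, plus strand) had the narrowest spread of the 9 tested genes. It measured 41.5 to 45.1 CPM in 786-O, 37.03 to 49.7 CPM in 769-P, 28.5 to 38.1 CPM in CAKI-2 and 22.8 to 27.3 CPM in A498. The highest and lowest lines were 1.75-fold apart (786-O against A498, log2 0.81 ± 0.13 SE, adjusted p = 6.41e-05), and 786-O and 769-P did not differ beyond their spread (log2 difference 0.05, 95% interval -0.23 to 0.32). CAKI-2 lay between, below 786-O by 1.39-fold (adjusted p = 0.00440) and above A498 by 1.26-fold (adjusted p = 0.0360), the latter lost without the sgCtrl or sgKDM5C 5 library of either line (adjusted p from 0.0550 to 0.275). A498 therefore combined the highest CDKN1A with the lowest CDKN1B.

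CDKN2C (chr1:51426417-51440306, plus strand) varied most. In 786-O it measured 164 CPM in sgCtrl, 134 and 145 CPM in sgKDM5C 4 and 5, and 163 and 152 CPM in sgKDM5D 2 and 4. In CAKI-2 the same order gave 23.8, 27.3, 29.6, 25.6 and 26.6 CPM. A498 held 11.1, 19.9 and 12.8 CPM and 769-P held 9.76, 6.01 and 8.84 CPM. The 4 lines did not overlap for this gene.

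The step from 786-O to 769-P was 17.8-fold (log2 4.15 ± 0.20 SE, adjusted p = 9.01e-10), that to A498 11.2-fold (adjusted p = 1.67e-09) and that to CAKI-2 5.80-fold (adjusted p = 2.78e-08). CAKI-2 exceeded A498 by 1.94-fold (adjusted p = 0.000275), and A498 exceeded 769-P by 1.58-fold (adjusted p = 0.00517), so every neighbour in the order differed. A span wider than that of CDKN2C was found in 24.5% of all genes tested and in 13.2% of genes averaging 100 counts or more.

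By the rule of the highest correlation of log2 CPM over the 16 libraries among the 12074 other genes averaging 100 counts or more, those most like CDKN2C were P3H1 (r = 0.991), RAC2 (r = 0.982) and MAMDC2 (r = 0.980). Their line medians fell in the same order as CDKN2C, from 249 to 53.5 CPM for P3H1, from 163 to 0.206 CPM for RAC2 and from 49.1 to 0.0412 CPM for MAMDC2. The points share 4 lines and these values describe mainly the lines. Within single lines of 3 or 5 libraries the correlations went from 0.11 in 786-O to 0.99 in A498 for P3H1, from -0.13 in 786-O to 0.997 in 769-P for RAC2 and from -0.98 in 769-P to 0.91 in CAKI-2 for MAMDC2.

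RB1 (chr13:48877880-49173572, plus strand) was detected in all libraries. It measured 94.6, 161 and 97.7 CPM in sgCtrl, sgKDM5C 4 and sgKDM5C 5 of 769-P, and 66.8 to 79.3 CPM in 786-O. It measured 32.9, 34.5 and 44.4 CPM in A498 and 25.9 to 32.2 CPM in CAKI-2. The lowest line was 3.95-fold under the highest (CAKI-2 against 769-P, log2 -1.98 ± 0.19 SE, adjusted p = 4.32e-07), and 769-P exceeded 786-O by 1.49-fold (adjusted p = 0.0146). The difference of CAKI-2 against A498 was not called (log2 -0.36, 95% interval -0.75 to 0.03, adjusted p = 0.0919), but it was when only these lines were fitted (log2 -0.36, adjusted p = 0.0122).

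Taking the line pairs one by one, 7 of the 9 genes differed between 786-O and CAKI-2, where 63.3% of all genes tested differed. The count was 7 between 786-O and A498 (68.7% of all genes), 5 between 786-O and 769-P (50.0%), 7 between CAKI-2 and A498 (65.8%), 7 between CAKI-2 and 769-P (63.8%) and 7 between A498 and 769-P (69.9%). Of 54 combinations of gene and line pair, 40 were called and 33 were called in every alternative setting as well. All 19 differences of 2-fold or more were among those 33.

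Levels of different genes were set against each other only per kilobase of exon (RPKM), and the length used mattered. With the union of annotated exons, CCND3 made up 45.1 to 56.5% of the RPKM of the 3 D cyclins in the CAKI-2 libraries, against 8.11 to 14.2% in 786-O, 13.1 to 20.8% in A498 and 10.4 to 14.2% in 769-P. With the longest transcript the CAKI-2 range was 63.8 to 73.5% and the highest value elsewhere 36.0%, in A498 sgKDM5C 4. CAKI-2 libraries lay above all others on both scales. In RPKM over the union of exons the summed D cyclins of CAKI-2 (106 to 126) overlapped those of 786-O (106 to 138), while A498 (68.2 to 84.8) and 769-P (73.1 to 84.9) were lower. With the longest transcript the order changed, and the CAKI-2 sums (181 to 233) lay above those of 786-O (138 to 175) without overlap.

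CDK6 took 30.0 to 40.7% of the summed RPKM of CDK4 and CDK6 in 786-O and 28.0 to 44.6% in 769-P over the union of exons, against 5.94 to 7.99% in CAKI-2 and 11.9 to 12.8% in A498. CDK4 thus exceeded CDK6 per length in every library, and with the longest transcript the CDK6 share was lower still, at most 33.7%. The RPKM of CDKN1A was 102 to 161 times that of CDKN1B in A498 over the union of exons, 62.9 to 99.4 times with the longest transcript, and at most 41.5 times in any library of the other lines. Over the union of exons the RPKM of CDKN2C came to 0.492 to 0.673 of the summed RPKM of CDK4 and CDK6 in 786-O. In 769-P it came to 0.0234 to 0.0404. With the longest transcript the ranges were 0.346 to 0.481 in 786-O and 0.0175 to 0.0282 in 769-P.

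**Figure D2:**
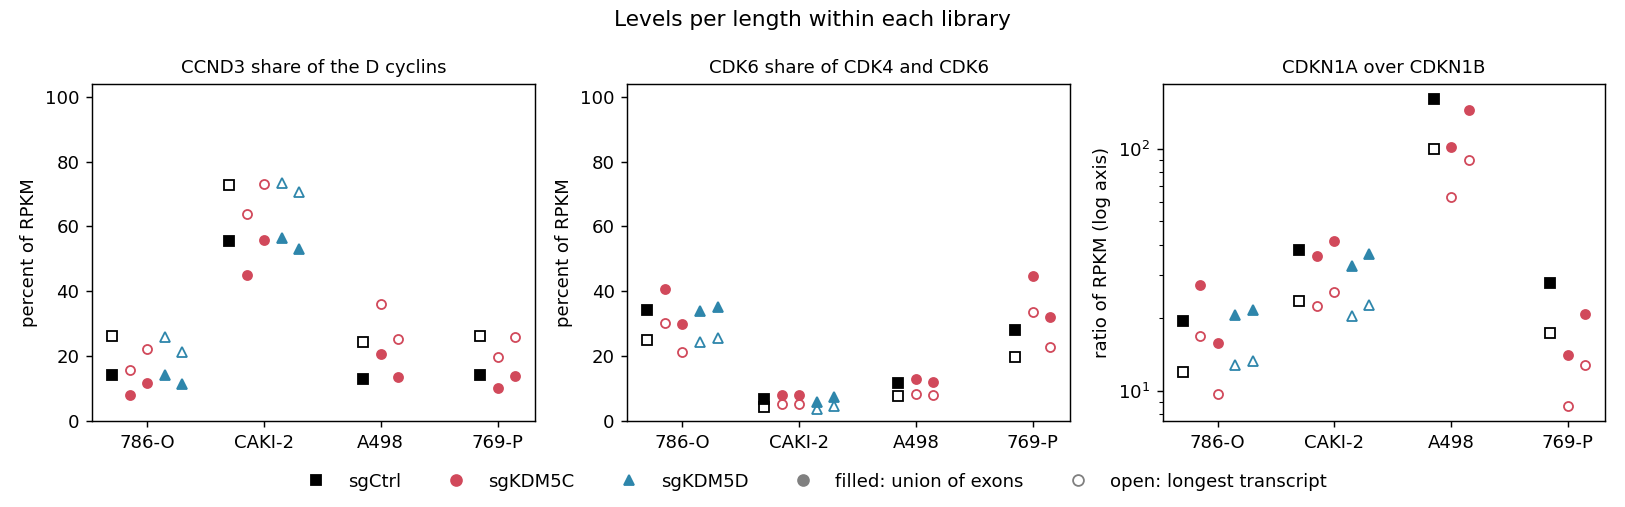
Levels per length within each library, by cell line (horizontal axis): CCND3 as a percentage of the summed RPKM of CCND1, CCND2 and CCND3, CDK6 as a percentage of the summed RPKM of CDK4 and CDK6, and the ratio of CDKN1A to CDKN1B on a log axis. Filled symbols use the union of exons and open symbols the longest transcript. CCND3 made up 45.1% or more in CAKI-2 on both scales, CDK6 was lowest in CAKI-2 and A498, and the CDKN1A ratio was highest in A498.

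Other genes of the pathway were read from 3 lists, 25 further regulators of G1, 20 genes that E2F factors activate at the start of S phase and 18 targets of p53. Of the 25 regulators 24 passed the filter and 23 differed between the lines, near the 90.5% of all genes tested that did, E2F4 being the exception (adjusted p = 0.176). CDKN2B (p15), an INK4 inhibitor like CDKN2C, measured 8.11 to 14.1 CPM in 769-P (197 to 396 counts a library) and had 0 counts in the other 13 libraries, and CDKN2A was below the filter on counts. The line with the lowest CDKN2C was hence the line in which CDKN2B was detected.

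CDKN1C (p57), the remaining CIP/KIP inhibitor, was highest in A498 at 7.84 to 9.62 CPM, lower in CAKI-2 at 3.66 to 5.30 CPM and 0 to 0.625 CPM in 786-O. E2F2 measured 25.9 to 31.7 CPM in 786-O and 0.255 to 0.826 CPM in A498. CCNE2, the gene of the other E-type cyclin, measured 13.5 to 16.7 CPM in 786-O and 0.213 to 0.304 CPM in A498. CCNE1 did not share this pattern, since its 786-O and A498 levels did not differ beyond their spread.

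All 20 E2F targets were lower in A498 than in each other line, where 68.7% of all genes tested differed in either direction against 786-O. Their median log2 difference of 786-O against A498 was 3.32, against -0.17 over all genes tested. ORC1, which loads the replicative helicase, measured 63.9 to 69.5 CPM in 786-O and 1.02 to 1.76 CPM in A498, and the helicase subunit gene MCM4 546 to 583 and 12.2 to 16.7 CPM. RRM2, a subunit of ribonucleotide reductase, measured 345 to 418 and 16.9 to 28.9 CPM, and CCNA2, the cyclin A gene of S phase, 92.5 to 111 and 4.09 to 7.96 CPM. A498 was also the line with the lowest CDK4 and the highest CDKN1A.

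Of the 18 p53 targets, 16 were called higher in A498 than in 786-O, 15 than in CAKI-2 and 15 than in 769-P. In these pairs 68.7%, 65.8% and 69.9% of all genes tested differed in either direction. Called or not, all 18 were higher in A498 than in 786-O, and 1 of 18 was higher in CAKI-2 than in A498. The median log2 difference of the list was -1.58 for 786-O against A498, where that of all genes was -0.17, -1.59 for CAKI-2 against A498 (all genes 0.01) and 1.10 for A498 against 769-P (all genes 0.16). GDF15, a secreted stress factor, measured 2640 to 3273 CPM in A498 and 6.50 to 18.4 CPM in 786-O. BTG2, an antiproliferative gene, measured 98.3 to 130 and 7.56 to 15.99 CPM, FDXR, a mitochondrial reductase, 156 to 200 and 27.0 to 36.3 CPM, and BBC3, the gene of the apoptosis factor PUMA, 69.4 to 90.6 and 13.5 to 19.1 CPM. MDM2 stands in both the list of regulators and that of p53 targets. With size factors by the median of ratios the same numbers of E2F and p53 targets were called against A498.

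**Figure D3:**
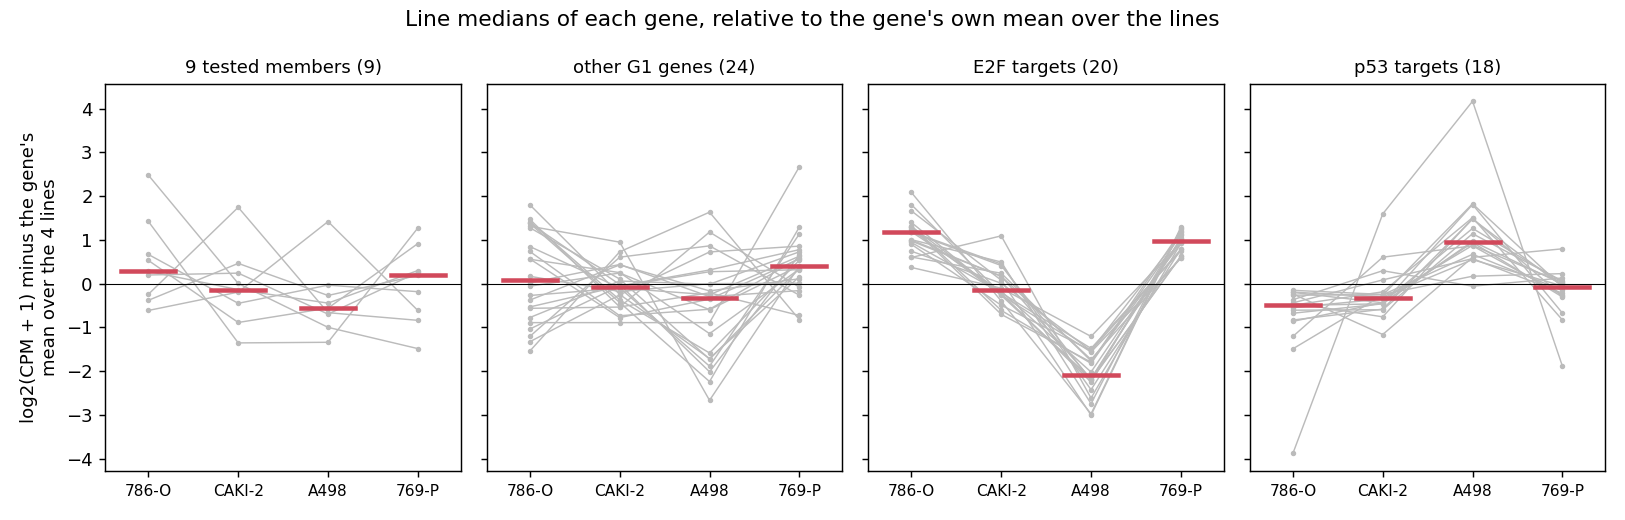
Line median of each gene as log2(CPM + 1) minus the mean of the gene over the 4 lines (vertical axis), by line (horizontal axis), for the 9 tested G1 genes, the 24 tested further regulators, the 20 E2F targets and the 18 p53 targets. Each grey line is a gene and each red bar the median of the list. The 20 E2F targets were all lowest in A498, where the 18 p53 targets were all above their level in 786-O.

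Against these differences between lines, guides against KDM5C or KDM5D changed none of the 9 tested genes detectably. With sgKDM5C against sgCtrl, 0 of 9 were called within 786-O, where 0.00991% of all genes tested were, and 0 of 9 within CAKI-2 (0% of all genes), within A498 (0.00496%), within 769-P (0.00496%) and over the mean of the 4 lines (0.00991%). With sgKDM5D against sgCtrl it was 0 of 9 within 786-O (0.0149%), within CAKI-2 (0%) and over their mean (0%). Between sgKDM5C and sgKDM5D it was 0 of 9 within 786-O (0.0644%), within CAKI-2 (0%) and over their mean (0.0397%). The effect of sgKDM5C differed between lines for 0 of 9 (0% of all genes), as did that of sgKDM5D (0.00496%).

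DESeq2 also called 0 of the 9 in each, but gave no adjusted p for 1 of these values. Of the 108 single log2 fold changes, 3 had an unadjusted p under 0.05, the lowest adjusted p was 0.882 and the largest change was 0.56, or 1.48-fold. In the same comparisons 156 to 1119 of all 20175 genes had an unadjusted p under 0.05. The 108 values are not separate, since the comparisons share libraries and the mean over the 4 lines includes each line's own value. Standard errors ran from 0.09 to 0.38 and the 95% intervals reached from -0.96 to 1.12, so smaller changes were not detectable, above all within a line where 2 libraries were set against 1. Over the mean of the 4 lines the intervals were tighter, for example -0.24 to 0.25 for CDK4 and -0.19 to 0.25 for CCND1.

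**Figure D4:**
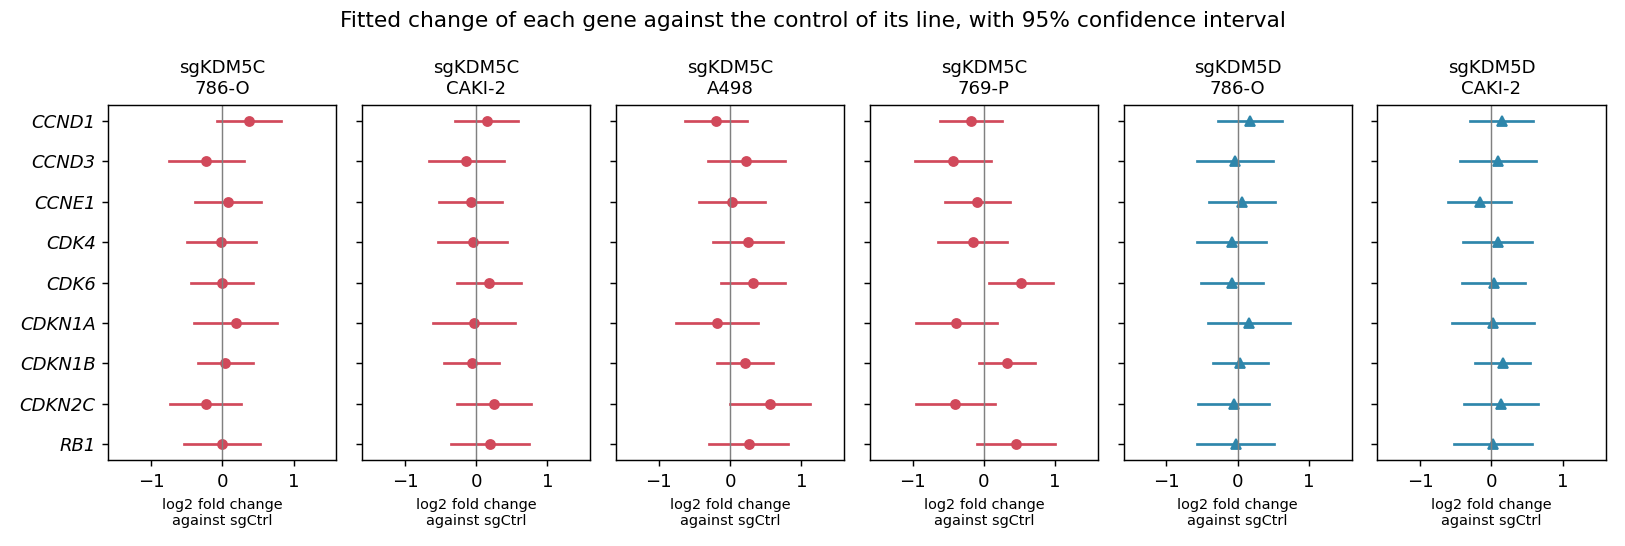
Fitted log2 fold change of the 9 tested genes against the sgCtrl library of the same line (horizontal axis, with bars for the 95% confidence interval), for sgKDM5C in 4 lines and sgKDM5D in 2 lines. All fitted changes lay between -0.43 and 0.56 and none was called at an adjusted p under 0.05.

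The 3 values with an unadjusted p under 0.05 belonged to CDKN2C and CDK6. CDKN2C was at 180 and 116% of control in sgKDM5C 4 and 5 of A498 (log2 0.56 ± 0.26 SE, adjusted p = 0.882, edgeR) and at 61.6 and 90.6% in 769-P (log2 -0.40 ± 0.26 SE, adjusted p = 1). The A498 value was 0.21 without sgKDM5C 4 and 0.85 without sgKDM5C 5. The test for a difference of the sgKDM5C effect between the 4 lines gave an adjusted p of 1 for CDKN2C.

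CDK6 was at 169 and 118% of control in sgKDM5C 4 and 5 of 769-P (log2 0.52 ± 0.21 SE, adjusted p = 1, edgeR), at 120 and 130% in A498, at 105.3 and 121% in CAKI-2 and at 101 and 98.9% in 786-O. Over the 4 lines the log2 change was 0.25 ± 0.10 SE (adjusted p = 0.901), with 7 of 8 libraries above control. RB1 in 769-P stood at 170 and 103% of control in sgKDM5C 4 and 5 (log2 0.45 ± 0.25 SE, adjusted p = 1). Without 769-P sgKDM5C 4 the log2 changes in 769-P were 0.24 for CDK6 and 0.05 for RB1, and without sgKDM5C 5 they were 0.76 (adjusted p = 0.146) and 0.77 (adjusted p = 0.192).

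That library also departed from its control by base composition. Genes in the highest quartile of GC content differed from those in the lowest quartile by -0.64 on the log2 scale in 769-P sgKDM5C 4 and by -0.40 in A498 sgKDM5C 5, whereas in the other 10 libraries with a guide against KDM5C or KDM5D the difference was between -0.22 and 0.20. Transcripts of CDK6 (39.7% GC) and RB1 (37.1% GC) are in the lowest quartile and those of CDKN1A (58.1% GC) and CDKN2C (58.1% GC) in the highest. With the trend removed, an alternative added after the data were seen, the changes in 769-P were 0.35 for CDK6, 0.19 for RB1, -0.29 for CDKN1A and -0.30 for CDKN2C, and none was called. The part of base composition in these values was otherwise not tested.

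The 2 guides against KDM5C did not always move a gene the same way. CDKN1A was at 142% of control in sgKDM5C 4 and at 85.3% in sgKDM5C 5 of 786-O, and CDK4 at 76.8 and 121%. In 769-P guide 4 gave CDK6 and RB1 levels that were 143 and 165% of those with guide 5. In A498 the CDKN2C level with guide 4 was 156% of that with guide 5, and in 769-P 68.0%. Leaving out sgKDM5C 4 of 786-O turned the CDKN1A change there from 0.19 to -0.22 and that of CDK4 from -0.02 to 0.28, none of them called.

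CDK4 and CCNE1 were lower with guide 4 than with guide 5 in 4 of 4 lines. How many of all genes kept the same direction over the lines was not counted, so nothing is concluded from this. For CCNE1 the level with guide 4 was 81.7% of that with guide 5 in 769-P and 96.7 to 98.9% in the other lines (adjusted p = 0.936, edgeR with guide as a term). The CDK4 level with guide 4 was 63.6% of that with guide 5 for 786-O, 87.8% for CAKI-2, 85.6% for A498 and 83.8% for 769-P (log2 -0.33 ± 0.11 SE over the lines, adjusted p = 0.903, edgeR with guide as a term). In that test 0 of 20175 genes (0%) were called and 938 had an unadjusted p under 0.05. The comparison of guides was added after the values were seen. KDM5C transcript was at 26.2 and 47.4% of control in sgKDM5C 4 and 5 of 786-O, and at 47.0 and 56.1% in CAKI-2. In A498 it was at 55.9 and 57.3%, and in 769-P at 35.1 and 49.3%. A relation of the guide differences to the KDM5C level was not tested.

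In sgKDM5D libraries the 9 genes kept close to control. The fitted log2 changes lay between -0.09 and 0.17 in 786-O and between -0.16 and 0.16 in CAKI-2. CCND1 was at 96.1 and 129% of control in sgKDM5D 2 and 4 of 786-O, the widest gap between these guides, and at 110% with either in CAKI-2. CDKN1B was at 121 and 102% in CAKI-2 and at 107 and 98.4% in 786-O. In A498 sgKDM5C libraries 8 of the 20 E2F targets and 7 of the 24 tested regulators had an unadjusted p under 0.05, as had 1119 of all 20175 genes. Their median log2 changes were 0.32 and 0.21 against 0.02 over all genes, and the lowest adjusted p were 0.802 and 0.751. In 769-P sgKDM5C libraries the median of the E2F targets was -0.19 against 0.02 over all genes, with 2 of 20 above 0. There 1 had an unadjusted p under 0.05, as had 670 of all genes. In CAKI-2 this median was 0.15 against 0, with 19 of 20 above 0 as in A498. In 786-O it was 0.04 against 0, with 12 of 20 above 0. In both lines 0 E2F targets had an unadjusted p under 0.05, while 392 of all genes had one in CAKI-2 and 589 in 786-O. The share of all genes above 0 was not counted. All 20 values of a line rest on its 1 control library, so their signs are not separate observations. The part of base composition in the list values of A498 and 769-P was not tested. None of the further regulators, E2F targets or p53 targets was called in any of these genotype comparisons either.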

How the data were processed

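RNA of the edited cell populations was made into 16 stranded libraries and sequenced in paired ends. The deposited values are raw counts per Ensembl gene, made by the authors with Trimmomatic 0.38 and STAR 2.5.2b on GRCh37 according to the submitters' processing notes; the counter, its annotation and its use of strand are not given in the sources used here. Every count column was used. From the counts, edgeR 4.0.16 (R 4.3.3) kept the 20175 genes whose counts summed to 60 or more, scaled libraries by TMM and fitted 1 quasi-likelihood model with the 10 groups of line and genotype, whose biological coefficient of variation was 15.2%. Calls were at a Benjamini-Hochberg adjusted p under 0.05 over all genes. Genes were named if members, or as the 4 genes of each further list with the widest span between lines. The members and lists were chosen with earlier results of these data known. Exon lengths, GC content and loci came from GENCODE on GRCh37. CPM used normalised library sizes, and total counts of 23398400 to 41617400 limit the precision. Alternatives were median-of-ratios scaling, DESeq2 1.42.0, 2 other count filters, fits of only the compared lines, a guide-number block, leaving out each library and, chosen after seeing the data, removal of the GC trend. The fit was checked on simulated data.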

Additional observations from a re-analysis of the deposited data

How the results depend on the processing

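Under median-of-ratios scaling, DESeq2, other filters, fits of fewer lines, the guide-number block and leaving out libraries, the number of the 9 tested genes called between lines ranged from 4 to 5 for 786-O against 769-P, from 5 to 8 for CAKI-2 against A498 or 769-P and from 7 to 8 for the other pairs, and no difference changed sign past the threshold. With no filter CCND2 was tested as well, giving 9 of 10 genes for 786-O against CAKI-2 and 10 of 10 for any difference between lines. In the 13 genotype comparisons 0 were called under every alternative, with a lowest adjusted p of 0.146 when libraries were left out. Deviations of libraries sharing a guide number correlated between -0.22 and 0.29. With mixed signs, these values cannot decide whether the number pairs the libraries. With the number as a replicate block 0 genes were called in the genotype comparisons, and between lines CDKN1B in CAKI-2 against A498 (log2 0.33, adjusted p = 0.0518) and CCNE1 in CAKI-2 against 769-P (log2 0.39, adjusted p = 0.0580) lost their calls. Each line has 1 control library, so the spread of controls was taken from the guided groups. Of the 10 genes, only CCND2 fell below the count filter of the main fit.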
